A study of Danio rerio with 32 samples.

Results

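The subject is a set of 7 zebrafish forkhead genes in 8 groups of larvae, a control and 7 retene concentrations: foxq1a and foxq1b, foxf1, foxf2a and foxf2b, and foxc1a and foxc1b. Members were chosen by symbol, because foxq1a and foxf2a had increased with retene in earlier work on the same data, and their relatives were added by name. All 7 members were measured, out of 22686 genes in the table. Their NCBI gene identifiers are 100537750 for foxq1a, 405843 for foxq1b, 566407 for foxf1, 407681 for foxf2a, 100002904 for foxf2b, 100148408 for foxc1a and 79375 for foxc1b. Because the choice used the values of foxq1a and foxf2a, these genes are described here without a test, and tests are given for the other 5 members.

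Forkhead proteins are transcription factors that bind DNA through a winged-helix domain. In vertebrates the genes for FOXQ1, FOXF2 and FOXC1 lie side by side in 1 cluster, and zebrafish carry a copy of that cluster on each of a pair of chromosomes, a result of the genome duplication of teleost fish. Foxf genes act in mesoderm around the gut and in other mesenchyme, where hedgehog signals can induce them, and foxf2 is also expressed in brain pericytes and in the mesenchyme of the face. Foxc1 acts in neural crest mesenchyme of the face and the anterior eye, in somites and in blood vessels. Foxq1 is known mostly from epithelia of mammals.

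Wild type zebrafish of the Tropical 5D line were freed from their chorion at 4 h post-fertilization (hpf) and kept in static medium with retene, an alkylated phenanthrene, in DMSO, or with DMSO alone, from 6 to 48 hpf. The highest nominal retene concentration was 50 µM, followed in steps of a factor of 2.5 by 20, 8, 3.2, 1.28 and 0.512 µM, and the lowest was 0.205 µM. Each group, the DMSO vehicle control included, consisted of 4 pools of 9 whole larvae, and only fish that looked normal at 48 hpf had been picked. Every comparison used the same 4 control pools, so the 7 comparisons are not independent.

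Polyadenylated RNA was sequenced, and recovered library totals ranged from 7720701 to 8656870 reads on genes (median 8169016). All 16 tissue markers looked up (muscle, lens, red cells, skin, neurons, endothelium, heart and liver) were measured, so the libraries carried the tissues of a whole larva. In such bulk samples, fewer cells of a type and less RNA per cell cannot be told apart. The pools that stood apart most on the first 2 principal components, which held 19% and 15% of the variance, were control replicate 2, 8 µM replicate 4 and 50 µM replicates 2 and 4. Results that rest on these pools are given with and without them. Leaving them out also makes the control, 8 µM and 50 µM groups smaller. A call lost without them therefore does not separate the part of these pools from that of fewer pools. No source used here says whether pools of a group came from separate clutches or days, so the p-values measure the spread between these pools.

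Levels are given as normalized counts, that is, reads divided by the size factor of the pool. Differences are given on the deposited log2 scale, on which genes with few reads show smaller differences than the log2 ratio of their counts. Levels of different genes are not ranked against each other, since no gene lengths were used.

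Foxq1a, which encodes a forkhead factor known from epithelia in mammals, had the highest ratio of 50 µM to control of the 7 members. In the control pools it stood at 52.2, 50.5, 76.2 and 52.3 normalized counts. At 0.205 µM the pools held 79.4, 64.5, 74.4 and 48.3, and at 0.512 µM 87.5, 93.0, 55.1 and 70.4. These low concentrations overlapped the control. At 1.28 µM the values were 115.9, 100.0, 56.0 and 68.9, and at 3.2 µM 69.4, 77.1, 97.1 and 160.7. Some pools were then far above the control while others lay within its range. At 8 µM the pools held 107.4, 118.4, 142.5 and 169.3 normalized counts. At 20 µM they held 205.8, 190.0, 232.8 and 245.1. At 50 µM they held 393.9, 316.2, 353.3 and 393.0. From 8 µM upwards, all pools lay above all control pools.

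The mean of foxq1a was 57.8 ± 12.3 normalized counts (SD, n = 4) in the control and 364.1 ± 37.1 (SD, n = 4) at 50 µM, a ratio of 6.30. The group mean was higher at each step than at the one before, with ratios to the control of 1.15, 1.32, 1.47, 1.75, 2.33 and 3.78 at the 6 lower concentrations. Only the steps from 8 to 20 µM and from 20 to 50 µM separated neighbouring groups without overlap of their pools. On the deposited log2 scale the difference from control was 0.10, 0.20, 0.27, 0.39, 0.66, 1.13 and 1.69 in order of concentration, each with a standard error of 0.12. At 50 µM it was 2.66 on the scale of log2(normalized count + 0.5), the ratio scale that does not compress genes with few reads.

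Foxq1b, the second copy of the same ancestral gene, rose at 50 µM and was not called at any lower concentration. Its control pools held 72.0, 52.4, 67.7 and 45.4 normalized counts. At the 5 concentrations up to 8 µM its pools ranged from 42.6 to 81.3, and each of these groups overlapped the control. At 20 µM its pools held 67.6, 76.4, 69.3 and 75.0, and at 50 µM 105.2, 89.7, 72.5 and 101.3. The lowest pool at 50 µM (72.5) was just above the highest control pool (72.0), so the groups did not overlap but nearly met. The mean was 1.55 times the control at 50 µM, and the limma difference was 0.33 (standard error 0.08, adjusted p = 0.0161). Foxq1b also rose over the ordered concentrations, by 0.040 per step on the log2 scale (standard error 0.009, limma adjusted p = 0.00754). The call at 50 µM depended on single pools and on the fit. The adjusted p at 50 µM was 0.0700 without control replicate 2, 0.0795 without control replicate 4, 0.0833 without 50 µM replicate 1 and 0.0672 without 50 µM replicate 4. It was 0.177 in a fit of the control and 50 µM pools alone. Without the 4 pools that stood apart, it was 0.215 at 50 µM and 0.115 for the trend (all limma). The trend lost its call in that 1 of 42 alternatives.

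**Figure D1:**
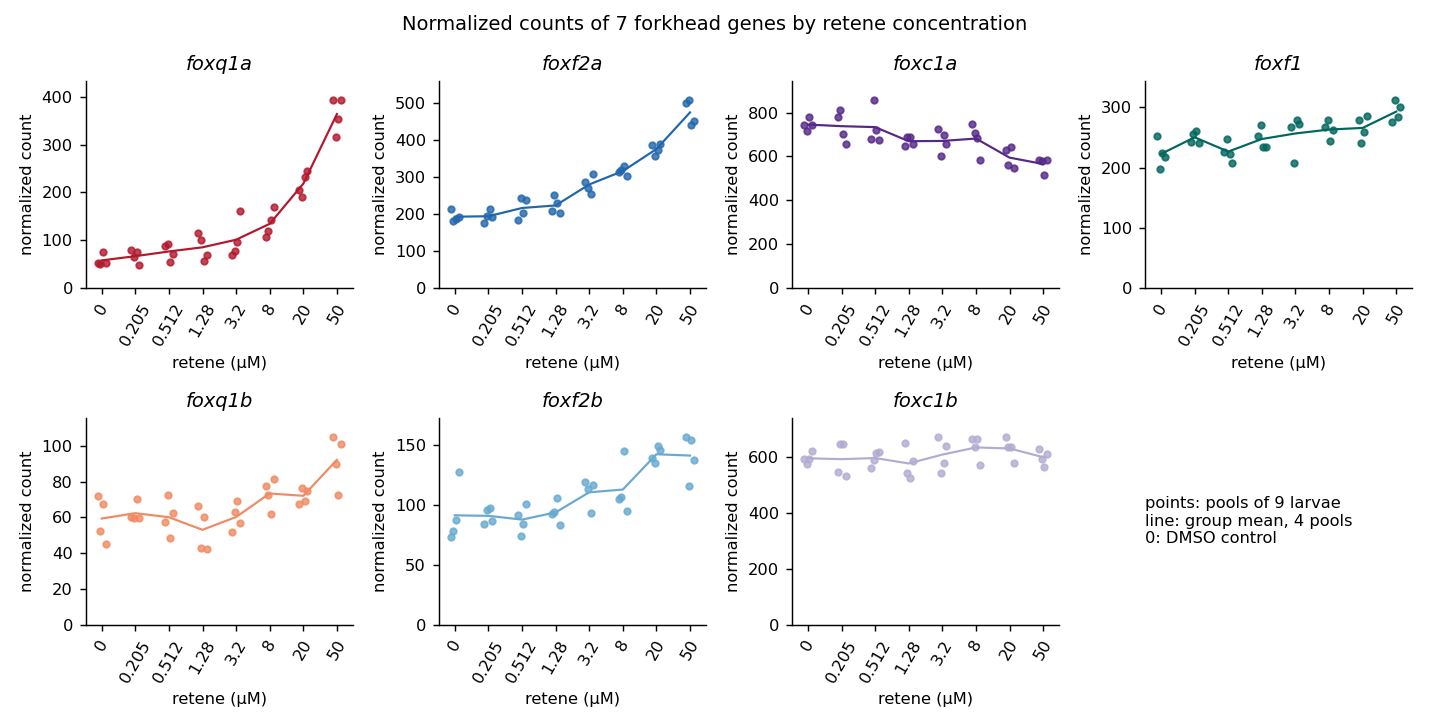
Normalized counts (vertical axes, from 0) of the 7 genes against the nominal retene concentration in µM (horizontal axes, 0 is the DMSO control). Points are pools of 9 larvae and lines join the means of 4 pools; foxq1a and foxf2a are higher at each step, foxc1a falls from 745.1 to 565.3 normalized counts, and the foxc1b pools at 50 µM lie among the control pools.

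Foxf2a, expressed in brain pericytes and in facial mesenchyme, was the second gene chosen for its increase. The control pools stood at 212.9, 180.1, 186.2 and 192.4 normalized counts. The pools held 175.8, 195.6, 213.9 and 191.3 at 0.205 µM, 182.7, 242.9, 203.5 and 236.9 at 0.512 µM, and 209.6, 251.0, 230.2 and 202.8 at 1.28 µM. Up to this concentration foxf2a overlapped the control. At 3.2 µM the pools held 286.4, 270.8, 255.1 and 308.0, and at 8 µM 312.6, 319.5, 329.3 and 304.2. At 20 µM they held 386.7, 356.4, 372.5 and 388.3. At 50 µM they held 501.1, 509.1, 439.7 and 450.8. All pools from 3.2 µM upwards were above all control pools, 1 concentration step lower than for foxq1a. For foxq1a that step rests on control replicate 3, at 76.2 normalized counts. The lowest foxq1a pools at 0.512, 1.28 and 3.2 µM (55.1, 56.0 and 69.4) were above its other control pools (50.5 to 52.3). These steps therefore do not show which gene rose at the lower concentration.

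The mean of foxf2a went from 192.9 ± 14.3 normalized counts in the control to 475.1 ± 35.0 at 50 µM (SD, n = 4 each), a ratio of 2.46. The ratios at the lower concentrations were 1.01, 1.12, 1.16, 1.45, 1.64 and 1.95. Neighbouring groups separated without overlap from 1.28 to 3.2 µM, from 8 to 20 µM and from 20 to 50 µM. On the deposited log2 scale the difference from control was 0.01, 0.11, 0.15, 0.39, 0.53, 0.72 and 1.00, each with a standard error of 0.065. Foxf2a had the smaller relative increase and the tighter pools of the pair: its pooled standard deviation within groups was 0.0863 on the log2 scale, against 0.192 for foxq1a. Differences between the 8 groups accounted for 95.4% of the variation of foxf2a and 91.5% of that of foxq1a.

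Foxf2b, the second foxf2 copy, rose at 20 and 50 µM. Its control pools were uneven, at 73.0, 78.1, 87.5 and 127.3 normalized counts. Up to 8 µM its pools ranged from 74.4 to 145.5, and each group overlapped the control. At 20 µM they held 139.2, 135.1, 149.6 and 146.1, all above the control. At 50 µM they held 157.3, 115.7, 154.8 and 137.8, and 3 of 4 were above all control pools. The ratio of the means to the control was 1.56 at 20 µM and 1.55 at 50 µM, so the mean was no higher at the top concentration.

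The difference of foxf2b from control was 0.39 at 20 µM (standard error 0.083, limma adjusted p = 0.0131) and 0.38 at 50 µM (standard error 0.083, limma adjusted p = 0.00679). Among the 5 members tested, foxf2b was the 1 member called at 20 µM, where 0.586% of all genes were called. The call at 20 µM was lost without control replicate 1 (adjusted p = 0.0865), without control replicate 2 (0.0750), without 20 µM replicate 3 (0.0558) and in a fit of those 2 groups alone (0.0916). The call at 50 µM was lost in the fit of 2 groups (adjusted p = 0.149) and kept in the other 17 alternatives. Its slope was 0.063 per concentration step (standard error 0.009, limma adjusted p = 1.17e-05) and was called in all 42 alternatives.

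Foxf1, which acts in mesoderm of the gut and in visceral smooth muscle, rose at 50 µM and over the ordered concentrations. The control pools held 252.4, 197.2, 223.8 and 217.1 normalized counts and the 50 µM pools 275.6, 312.4, 283.8 and 299.8. The pools from 0.205 to 20 µM ranged from 207.9 to 285.4 and overlapped the control at each concentration. The mean was 222.6 ± 22.8 in the control and 292.9 ± 16.4 at 50 µM (SD, n = 4 each), a ratio of 1.32. The difference was 0.30 (standard error 0.065, limma adjusted p = 0.00712) and the slope 0.034 per step (standard error 0.007, limma adjusted p = 0.00165). At 50 µM foxf1 was no longer called without control replicate 2 (adjusted p = 0.0515), without the 4 pools that stood apart (0.250) or in the fit of 2 groups (0.0969). The slope had an adjusted p of 0.0537 without those 4 pools.

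Foxc1a, which acts in neural crest mesenchyme, somites and vessels, fell at 50 µM and over the ordered concentrations. Its control pools held 742.3, 714.5, 781.5 and 742.0 normalized counts. At 20 µM they held 629.3, 562.0, 640.9 and 545.9, and at 50 µM 585.3, 579.4, 514.1 and 582.5. All of these pools were below all control pools. At 1.28 µM the pools, at 645.9, 689.1, 686.4 and 656.0, were also below the control, whereas at 0.205, 0.512, 3.2 and 8 µM they overlapped it, with a range from 584.4 to 857.8.

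The mean of foxc1a was 745.1 ± 27.6 in the control, 594.5 ± 47.6 at 20 µM and 565.3 ± 34.2 at 50 µM (SD, n = 4 each), which gives ratios of 0.798 and 0.759. The difference was -0.35 at 50 µM (standard error 0.072, limma adjusted p = 0.00363) and -0.29 at 20 µM (standard error 0.072, limma adjusted p = 0.0551), the latter not past the threshold. The slope was -0.048 per step (standard error 0.008, limma adjusted p = 5.21e-05). The fall at 50 µM passed the threshold in all 18 alternatives, with adjusted p-values from 0.00293 to 0.0271, and the slope in all 42, from 1.34e-05 to 0.00052. At 20 µM the call was gained with a replicate block (adjusted p = 0.0460), with genes of few reads removed (0.0451) and without the 4 pools that stood apart (0.0396).

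Foxc1b, the second foxc1 copy, was at about the same level in the control and at 50 µM. Its control pools held 593.5, 574.5, 595.3 and 623.6 normalized counts and its 50 µM pools 629.4, 594.9, 565.7 and 612.9. It overlapped the control at every concentration, with exposed pools from 526.7 to 674.6. The ratio at 50 µM was 1.01, the difference 0.01 (standard error 0.067, limma adjusted p = 0.971) and the slope 0.009 per step (standard error 0.007, limma adjusted p = 0.579). Groups accounted for 18.3% of its variation, the lowest share of the 7 members, against 64.4% for foxc1a. These shares were not corrected for the number of groups. Values unrelated to the groups also give a share, so 18.3% does not mark a difference between groups.

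**Figure D2:**
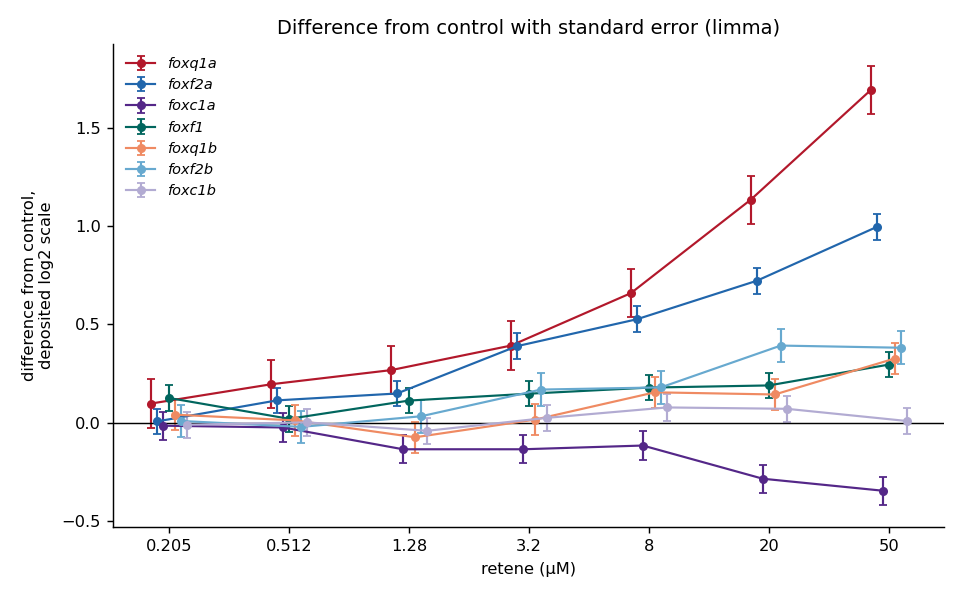
Difference from control on the deposited log2 scale (vertical axis) for each member at each retene concentration in µM (horizontal axis), with the standard error of the limma fit as bars. The lines of foxq1a and foxf2a reach 1.69 and 1.00 at 50 µM. Foxf2b, foxq1b and foxf1 lie between 0.30 and 0.38, foxc1b is at 0.01 and foxc1a at -0.35. The scale compresses genes with few reads. As ratios of mean counts to the control at 50 µM, foxf2b and foxq1b stood at 1.55 and foxf1 at 1.32.

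Of the 5 members tested, 4 were called at 50 µM, 3 higher and 1 lower. Among all genes tested, 2.48% were called at 50 µM, 1.45% higher and 1.02% lower. The same 4 members were called in the trend over ordered concentrations, where 4.95% of all genes were called, 2.61% with a rising and 2.34% with a falling slope. In the 50 µM group, 4 of the 7 members had all pools above all control pools, which held for 4.13% of all genes, and foxc1a had all pools below them, which held for 3.02%. The counts over members include foxq1a and foxf2a, which were chosen for this rise. Below 20 µM none of the 5 was called by limma, with adjusted p-values between 0.311 and 0.998. Of these 25 values (5 members at 5 concentrations), 3 had an unadjusted p under 0.05, foxf1 at 3.2 and 8 µM and foxf2b at 8 µM, and limma with voom weights called 0.

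The a copy and the b copy of each pair were then compared within the same pools. The log2 ratio of foxc1a to foxc1b counts was 0.32 ± 0.06 in the control (SD, n = 4, from 0.25 to 0.39) and -0.09 ± 0.04 at 50 µM (SD, n = 4, from -0.14 to -0.04). All pools at 8, 20 and 50 µM had a lower ratio than all control pools. The difference from control was -0.22 at 8 µM, -0.41 at 20 µM and -0.41 at 50 µM, each with an exact two-sided permutation p of 0.0286, the smallest that 4 against 4 pools allow, and 0.0667 after adjustment over 7 concentrations. This comparison was added after the values had been seen. With only these concentrations at the smallest possible p, the adjusted p could not fall below 0.0667. The number of pools set the smallest p, and the adjusted p also depended on how many concentrations reached it. Neither p-value decides whether the copies differed.

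For the pairs that hold a member chosen for its increase, the ratios are a description. The ratio of foxq1a to foxq1b counts went from 0.976 in the control to 3.98 at 50 µM, as geometric means over pools. The ratio of foxf2a to foxf2b counts went from 2.16 to 3.38. In both pairs the 50 µM mean was above the control mean, and the foxf2 ranges overlapped, since the control ratio ranged from 0.60 to 1.55 on the log2 scale and the 50 µM ratio from 1.51 to 2.14.

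**Figure D3:**
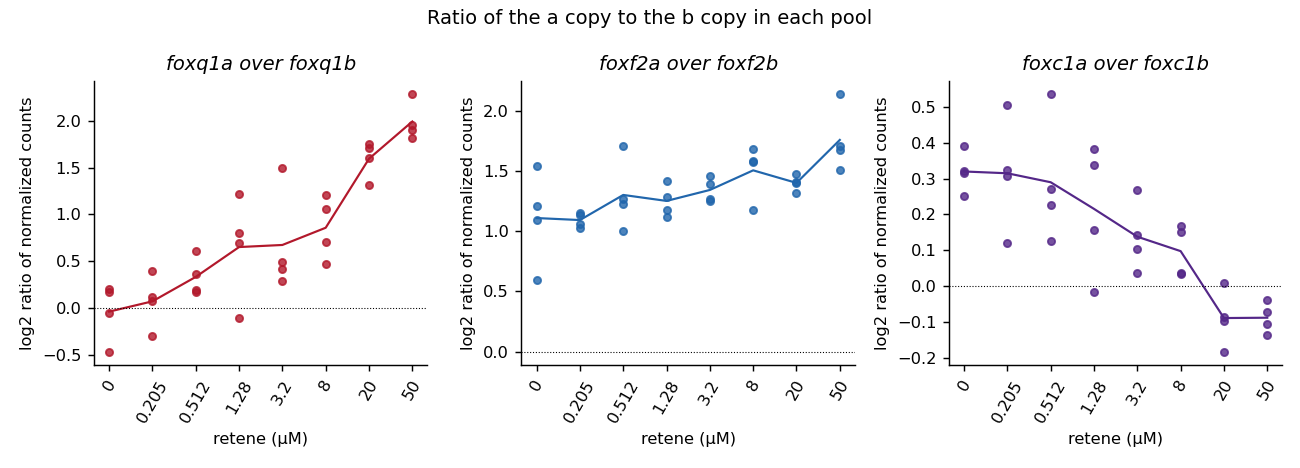
Log2 ratio of the normalized count of the a copy to that of the b copy in each pool (vertical axes, each with its own range) against retene in µM (horizontal axes, 0 is the control). Points are pools and lines join group means; the foxc1 ratio goes from 0.32 to -0.09, while the foxq1 and foxf2 ratios are higher at 50 µM than in the control. Gene lengths were not used, so a ratio of 0 does not mark equal amounts of transcript.

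The rule that chose the members gave symbols and not positions, although all members but foxf1 belong to the forkhead cluster described above. Whether position had a part in the choice is not stated. In the RefSeq annotation of a later assembly, foxc1a, foxf2a and foxq1a form a run with ftr93, a member of the finTRIM family, between foxc1a and foxf2a. Foxq1b, foxf2b and foxc1b form the other, uninterrupted run on another chromosome, and foxf1 stands apart on a further one. Within 5 protein-coding genes on either side, 31 further genes are annotated and 30 were measured. Around the foxc1a, foxf2a and foxq1a run, 11 genes were measured and limma called 0 of them at 50 µM or in the trend. Without adjustment, 2 of the 11 had p under 0.05 at 50 µM and 0 in the trend, and limma with voom weights also called 0. Their differences at 50 µM ranged from -0.29 for ripk1l to 0.21 for ftr93. The genes next to the outer members, mylk4a beside foxc1a and irf4a beside foxq1a, differed by -0.08 and 0.02. Over all pools, ripk1l, ftr93, irf4a and mylk4a had means of 8.66, 7.73, 11.6 and 66.0 normalized counts. The means of foxq1a, foxf2a and foxc1a were 138.0, 284.3 and 674.7. The deposited scale compresses genes with few reads, so a small difference of such a neighbour does not mark a small count ratio.

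Around the second run, 1 of 10 genes was called at 50 µM and in the trend, beside 2.48% and 4.95% of all genes. This was gmds, which encodes GDP-mannose dehydratase of fucose synthesis and lies next to foxc1b. It rose by 0.25 at 50 µM (standard error 0.062, limma adjusted p = 0.0218) and by 0.030 per step (standard error 0.007, limma adjusted p = 0.00343). Its call at 50 µM was lost in 7 of 18 alternatives, with limma adjusted p-values up to 0.133. These were the fit of 2 groups, the fit without the 4 pools that stood apart, and 5 fits with 1 pool left out. Those 5 left out control replicate 1, control replicate 2 or 50 µM replicate 1, 3 or 4. The slope of gmds lost the call in 1 of 42. Foxc1b itself, between foxf2b and gmds, was not called. Around foxf1, limma called 0 of 9 genes at 50 µM and in the trend, with or without voom weights. Without adjustment, 2 of them had p under 0.05 at 50 µM. Mthfsd, next to foxf1, differed by 0.294 at 50 µM (standard error 0.116, limma adjusted p = 0.202), beside 0.295 for foxf1 (standard error 0.065). The missing call of mthfsd therefore does not set foxf1 apart from it. Mthfsd had a mean of 30.1 normalized counts over all pools and foxf1 253.1. Because the deposited scale compresses genes with few reads, like differences on it do not mean like count ratios.

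**Figure D4:**
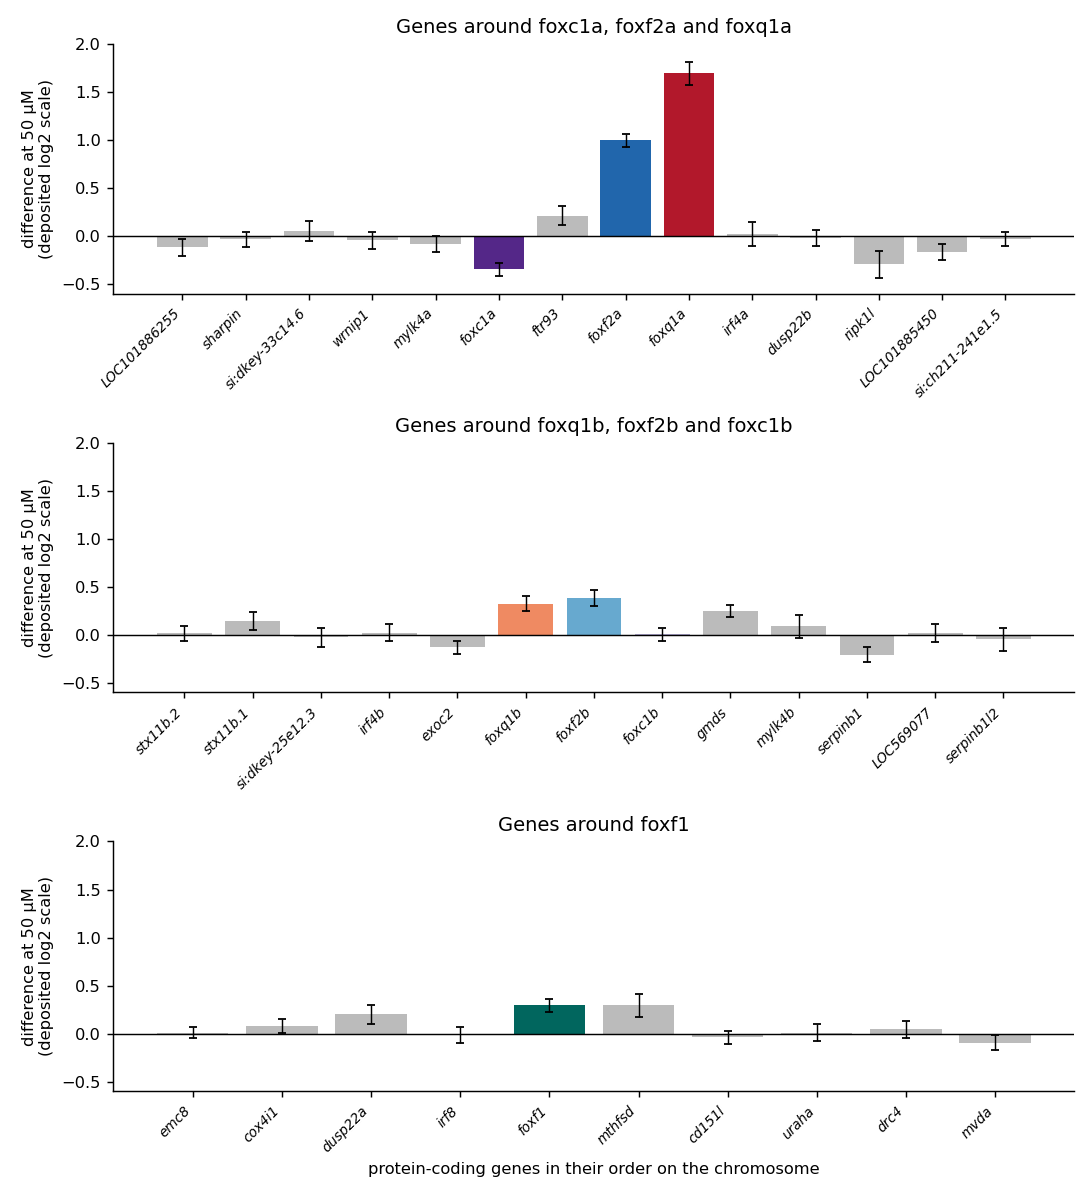
Difference at 50 µM on the deposited log2 scale (vertical axes, bars with standard error) for protein-coding genes in their order along the chromosome (horizontal axes), around the 3 places that hold members (colored bars). Gray bars are other genes and lie between -0.29 and 0.29. Foxf2a and foxq1a stand above their neighbours on this scale, while foxc1a at -0.35 is on the other side of ftr93. The scale compresses genes with few reads, such as ripk1l and ftr93.

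The genes whose values followed foxq1a most closely over the 32 pools were listed by Pearson r, as a description. The 10 closest were LOC110366352 (r = 0.968), gstp1.2, cyp1c2, sult6b1, fgf7, ahrra, nfe2l2b, cyb5a, cyp1c1 and GeneID.103909114 (r = 0.937). For foxf2a they were cyp1c1 (r = 0.967), cyp1c2, sult6b1, cyp1a, wfikkn1, ccn2b, ahrra, gstp1.2, LOC110366352 and nfe2l2b (r = 0.930). Cyp1a, cyp1c1 and cyp1c2 encode cytochrome P450 enzymes induced by the aryl hydrocarbon receptor (AHR), ahrra encodes the AHR repressor, gstp1.2 a glutathione transferase, sult6b1 a sulfotransferase and nfe2l2b a copy of the oxidative stress factor NRF2. Fgf7 is a growth factor that acts on epithelia, ccn2b a copy of connective tissue growth factor, and cyb5a a cytochrome b5. The lists share 7 genes, 7 of 10 in each.

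These correlations are over pools that share exposure groups, and much of their size is the difference between groups. After each group mean was subtracted, r with foxq1a ranged from 0.219 to 0.737 for its 10 genes, with cyp1c1 the highest. With foxf2a it ranged from 0.020 to 0.263 for its 10. Foxq1a and foxf2a had r = 0.922 over the 32 pools, the 14th and 13th place in each other's order, and r = 0.118 within groups. Foxc1a had r of -0.735 with foxq1a over the pools and -0.015 within groups. Over the 21 pairs of members, r within groups ranged from -0.376, for foxq1b with foxf2b, to 0.423, for foxc1a with foxc1b. Within groups, foxq1a had r between -0.015 and 0.312 with the other members.

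Of the forkhead genes that RefSeq lists, 58 were examined, of which 52 were in the table, 45 of them outside the members. At 50 µM, limma called 1 of these 45, beside 2.48% of all genes. Foxk2b fell by 0.25 (adjusted p = 0.0367), from 1229 to 1015 normalized counts, and lost the call in 9 of 18 alternatives. In the fit of 2 groups and in the fit without the 4 pools that stood apart, 0 of the 45 were called at 50 µM, and 8 had an unadjusted p under 0.05 in the fit of all pools. Over the ordered concentrations 3 were called, beside 4.95% of all genes, and all 3 had falling slopes. These were foxn4, a retinal and neural factor (-0.041, adjusted p = 0.00185), foxk2b (-0.032, adjusted p = 0.00262) and foxd3, a neural crest factor (-0.023, adjusted p = 0.0370, lost in 14 of 42 alternatives). Without the 4 pools that stood apart, foxd3 had a limma adjusted p of 0.0651 in the trend. The median difference of the 45 at 50 µM was -0.035, beside 0.003 over all genes, and their differences ranged from -0.25 to 0.18.

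**Figure D5:**
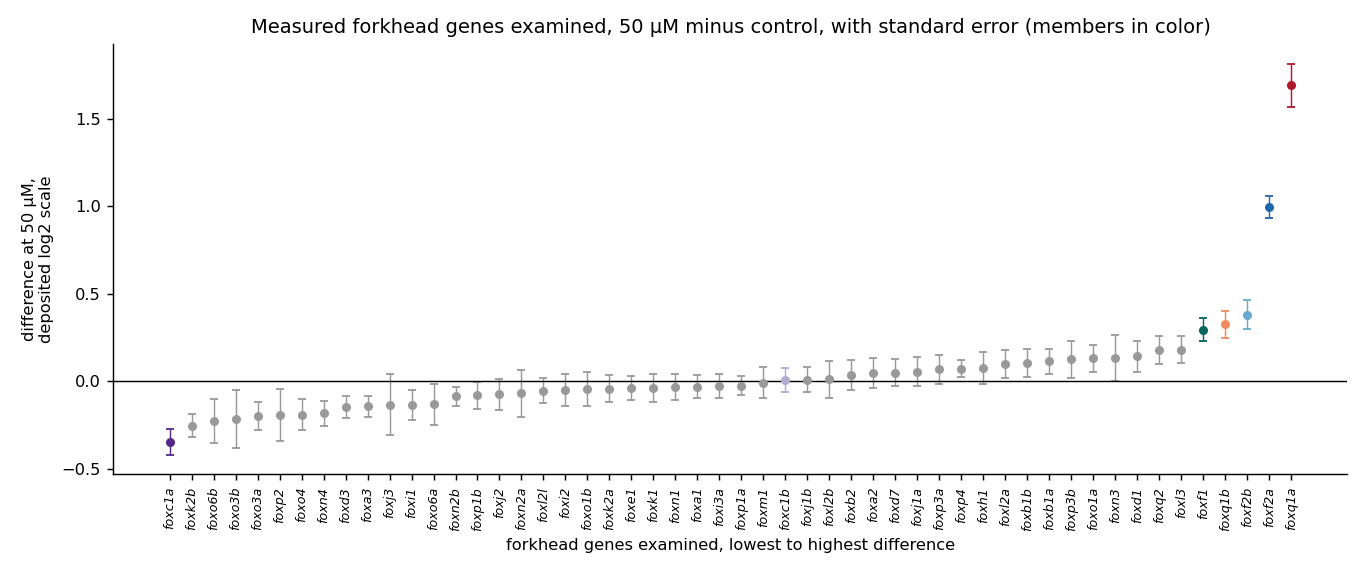
Difference at 50 µM on the deposited log2 scale (vertical axis, with standard error) for 52 measured forkhead genes, ordered from lowest to highest (horizontal axis). Colored points are the 7 members and gray points the other 45; foxc1a is at the low end, and foxq1a, foxf2a, foxf2b and foxq1b are the 4 highest. The order holds for this scale, which compresses genes with few reads. For example, foxl3 went from 1.2 normalized counts in the control to 3.5 at 50 µM and shows 0.18.

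Hedgehog signals induce foxf genes in several tissues of vertebrates, so 20 genes of the pathway (ligands, receptors, transducers and transcription factors) were examined. Limma called 2 at 50 µM, beside 2.48% of all genes. Scube2, which helps release hedgehog ligands, rose by 0.29 (adjusted p = 0.00497), and without the 4 pools that stood apart it lost its call at 50 µM (adjusted p = 0.121) and in the trend (adjusted p = 0.0547). Gas1a, a hedgehog co-receptor, fell by 0.30 (adjusted p = 0.00391). The ligand shhb was called only in the trend, with a slope of -0.034 (adjusted p = 0.0105). That makes 1 higher and 2 lower there, beside 2.61% and 2.34% of all genes. At 50 µM smo differed by -0.25 (limma adjusted p = 0.191) and hhip by -0.15 (limma adjusted p = 0.23). Without adjustment, 5 of the 20 had p under 0.05 there. Ptch1 and gli1, targets of the pathway, were named after their values had been seen. Ptch1 differed by -0.21 (standard error 0.211, limma adjusted p = 0.699), too imprecise to show whether it changed. Gli1 differed by 0.03 (standard error 0.096, limma adjusted p = 0.914). The median of the list was -0.06. Without the 4 pools that stood apart 1 of the 20 was called at 50 µM, and 0 in the fit of 2 groups.

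The members foxf2a, foxf2b, foxc1a and foxc1b are also used as markers of mural cells, the pericytes and smooth muscle cells around vessels. Of the 11 other mural markers, limma called 0 at 50 µM and 0 in the trend, beside 2.48% and 4.95% of all genes. Limma with voom weights also called 0 of the 11. Without adjustment 1 had p under 0.05 at 50 µM and 0 in the trend. This was kcnj8, a pericyte potassium channel, with 7.27 normalized counts in the control and 2.21 at 50 µM (difference -0.25, adjusted p = 0.136). Pdgfrb, a receptor that marks pericytes and was named after its values had been seen, differed by -0.16 (adjusted p = 0.679) and notch3 by -0.25 (adjusted p = 0.504). Tagln, rgs5b and myh11a went the other way, by 0.11, 0.10 and 0.05 (limma adjusted p = 0.557, 0.558 and 0.876). The remaining markers were lower and not called, and the median of the 11 was -0.08.

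Foxf2 and foxc1 also act in the mesenchyme of the face, and 25 of 27 listed genes of that tissue were measured. Limma called 3 higher and 1 lower at 50 µM, beside 1.45% and 1.02% of all genes. The list was drawn up with earlier results of these data known, so these counts are a description and not a test of the tissue. The homeobox genes dlx3b, prrx1a and msx2b rose by 0.51, 0.47 and 0.57 (adjusted p from 3.22e-06 to 3.7e-05). Sox9b, a cartilage and neural crest factor, fell by 0.39 (adjusted p = 0.00711). These 4 kept their calls in all 18 alternatives at 50 µM. All 4 were named by their adjusted p at 50 µM. In the trend, where 4.95% of all genes were called, 1 further gene of the list was called. This was alx1, named after its values had been seen, with a slope of 0.027 (limma adjusted p = 0.0448). Alx1 lost the call in 21 of 42 alternatives, among them the fit without the 4 pools that stood apart (limma adjusted p = 0.0723). The median of the 25 was 0.05, and the other 21 were not called at 50 µM in the fit of all pools. Next by adjusted p was alx4a, which differed by -0.22 (limma adjusted p = 0.0527), with 4 pools below all control pools. Without adjustment, 9 of the 25 had p under 0.05 at 50 µM. Without the 4 pools that stood apart, 5 of the 25 were called there.

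Among the 16 tissue markers, krt4, a skin keratin, was called lower at 50 µM (-0.33, limma adjusted p = 0.00363), and krt4 and cryba1b, a lens crystallin, in the trend. Over all genes, 1.02% were called lower at 50 µM and 2.34% were called with a falling slope. Krt4 lost its call at 50 µM in the fit of 2 groups (adjusted p = 0.105), where 0 of the 16 were called. Krt5, the other skin marker of the list, went the other way at 50 µM, by 0.14 (limma adjusted p = 0.532). It had 3 pools above all control pools. The median of the 16 was -0.05. Whether the amount of any tissue had a part in the changes of the members was not tested.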

How the data were processed

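The authors mapped reads of the 32 pools to GRCz11 (STAR), counted reads per gene (HTSeq), dropped genes often at 0 and normalized with DESeq2 (versions not given in the sources used here). Values were deposited by the authors as log2-like numbers whose form is that of a variance-stabilizing transformation, with 0 reads at 5.7116. Reversing it returned whole reads over a size factor per pool (0.94 to 1.08) for 100.0% of values, within 0.01 reads. RefSeq of assembly GRCz12tu named 21030 genes, so no coordinates are given.

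The deposited log2 values were fitted in limma 3.58.1 (R 4.3.3), with group means of all pools, moderated variances following mean expression, and two-sided p-values adjusted by Benjamini-Hochberg over 22686 genes per comparison (threshold 0.05). The trend was the slope on the concentration step, from 0 in the control to 7. The foxc1 ratio was compared by exact permutation. The fits were also run on simulated counts, drawn independently for each gene. Those counts hold no outlying pools, so they do not show how calls depend on such pools. Other steps used Python 3.11.15.

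The members and gene lists were chosen with earlier results of these data known, so the counts called in each list are a description. Genes named by rule are the members and the 10 genes with the highest r with foxq1a and with foxf2a. Neighbours and other forkhead genes were named if called at 50 µM or in the trend. Up to 5 genes of each other list were named by adjusted p at 50 µM. Outside this rule, ptch1, gli1, pdgfrb, myh11a, alx1 and foxl3 were named after their values had been seen. The same holds for the uncalled neighbours ripk1l, ftr93, mylk4a, irf4a and mthfsd. Alternatives changed the scale, the pseudocount (0.5 or 2), weights (voom), a minimum mean count of 10, the variance trend, the pools fitted, quantile or upper-quartile scaling, a replicate block, each pool left out and an adjusted p under 0.01. Some genes of the lists are not reported here and are left out of the list counts. Sequences were not analysed here, and no library batches are given in the sources used here.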

Additional observations from a re-analysis of the deposited data

Results flagged for a closer look

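In 4 of 56 groups of 4 pools (7 members in 8 groups), 1 pool lay far from the others by Dixon's test, where chance gives about 1 in 20 groups. Control replicate 3 was the highest control pool for foxq1a, at 76.2 normalized counts beside 50.5 to 52.3 in the others, and was still below every pool at 8 µM and above. For foxq1b, replicate 3 at 0.205 µM was the highest, at 70.3 beside 59.4 to 60.3. For foxf1, replicate 2 at 3.2 µM was the lowest, at 207.9 beside 267.9 to 278.9. For foxc1a, replicate 3 at 50 µM was the lowest, at 514.1 beside 579.4 to 585.3, and all 4 of these pools were below the control. These pools belong to different groups for each gene.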

How the results depend on the processing

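The fall of foxc1a at 50 µM and the slopes of foxc1a and foxf2b passed the threshold under every alternative run, whereas the calls of foxq1b and foxf1 were lost without the 4 pools that stood apart, as given above. Of the 5 members tested, 4 were called at 50 µM, 1 in a fit of the 2 groups alone, 2 without the 4 pools, and 2 to 4 with 1 pool left out (2 without control replicate 2). In the trend 4 were called, and 2 without the 4 pools. At 20 µM 1 was called, 2 with a minimum mean count of 10, 0 in the fit of 2 groups, 2 without the 4 pools, 0 at an adjusted p under 0.01, and 0 to 1 with 1 pool left out. Over all genes, 562 were called at 50 µM, 182 in the fit of 2 groups, 369 without the 4 pools and 245 at an adjusted p under 0.01. With 1 pool left out the count ranged from 322, without control replicate 2, to 930, without 50 µM replicate 2. At 20 µM 133 genes were called, 68 at the stricter threshold and 87 to 122 with 1 pool left out. In the trend 1123 were called, and 542 at the stricter threshold. Causes of these differences were not tested. On average the replicate numbers showed no pairing of the pools. Deviations from the group means of pools with the same number had a mean correlation of 0.0011 over 112 pairs. These correlations ranged from -0.569 to 0.385, so the mean does not exclude pairing in some groups. A replicate block gave 523 genes at 50 µM, 1114 in the trend and 2 members at 20 µM. The difference of foxc1b at 50 µM, 0.008, changed sign to -0.015 without the 4 pools and ranged from -0.012 to 0.032 with 1 pool left out. The foxc1a to foxc1b difference at 50 µM was -0.41 as a log2 ratio of counts, -0.43 to -0.39 on that scale with 1 pool left out, and -0.36 on the deposited scale with all pools. On the scale of log2(count + 0.5), the differences of foxq1a and foxf2a at 50 µM were 2.66 and 1.30, in place of 1.69 and 1.00. By Spearman rho, 5 of the 10 genes closest to foxq1a and 6 of the 10 closest to foxf2a were retained. With 42 to 105 reads per pool, foxq1b had the fewest reads of the members called, which limits the precision of its values.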
